A study of Mus musculus with 16 samples.

Results

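Transcripts of 9 cardiac receptor genes that signal through heterotrimeric G proteins (Gpr22, Adrb1, Adra1a, Adra1b, Chrm2, Adora1, Agtr1a, Ednra and Ednrb) were followed in atria and ventricles of adult mice after inducible deletion of Meis1 and Meis2, which encode homeodomain transcription factors. The genes were chosen by name, with earlier results of these data known. The 9 are part of 16118 genes in the deposited table. Polyadenylated RNA was sequenced from both chambers of 8 male littermates, giving 4 groups of 4 libraries. All mice had the genotype Meis1flox/flox and Meis2flox/flox, and hearts were taken 2 weeks after tamoxifen induction; the sources used here do not give age, strain or tamoxifen dose. The idKO mice carried one copy of α-MHC-MerCreMer (tg/wt), a tamoxifen-activated Cre recombinase under the cardiomyocyte promoter of α-myosin heavy chain, and the control mice had none (wt/wt). Since the controls lack the transgene, the action of MerCreMer itself and the loss of the floxed genes cannot be told apart. Each mouse gave one atrial and one ventricular library, so the 4 libraries of a group are 4 animals.

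Receptors of this kind span the plasma membrane and, once bound by a ligand, activate a G protein inside the cell. In the heart the β1-adrenergic receptor (Adrb1) acts through Gs and raises cyclic AMP, whereas the α1-adrenergic (Adra1a, Adra1b), angiotensin (Agtr1a) and endothelin (Ednra, Ednrb) receptors act largely through Gq. The M2 muscarinic (Chrm2) and A1 adenosine (Adora1) receptors act through Gi, open a potassium channel in atrial and nodal cells and slow the heart. Gpr22 is an orphan receptor, with no established ligand, known for its expression in heart and brain.

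Promoter sequence is shown for Gpr22, the receptor with the largest genotype difference, and for Chrm2, the other receptor whose promoter held the letters searched. RefSeq windows on GRCm38.p6, 250 bases before to 50 bases after each start, were matched for 7 of the 9 receptors, with 9 windows in all. The core letters bound by MEIS proteins, TGACAG or CTGTCA on the other strand, were found in windows of 2 receptors, Gpr22 and Chrm2, and in 19.18% of the 32851 mouse promoter windows of that length. The letters bound by GATA factors, AGATAA or TTATCT, were in windows of 0 of the 7 matched receptors and in 11.18% of all windows. A search for TATAAA or TTTATA, added after the sequences were seen, found it in Gpr22 and in 13.62% of all windows. These motifs do not overlap one another in the windows printed here. A match is a description of the letters only, and binding was not measured. In the following lines each sequence is read along the gene's own strand and the capitals mark the motif.
Gpr22, MEIS letters at position -2 from the RefSeq start, chr12:31713868-31713897, minus strand: cgacaaggtaggCTGTCActctgcaaaagc
Chrm2, MEIS letters at position -210, chr6:36387862-36387891, plus strand: tgagagagaaagCTGTCAtatttgcaccga
Chrm2, MEIS letters at position -127, chr6:36387945-36387974, plus strand: cggcaactaatcCTGTCAgaacgaaagaaa
Gpr22, 186 bases upstream of the annotated gene with the TATA letters, chr12:31713948-31714133, minus strand: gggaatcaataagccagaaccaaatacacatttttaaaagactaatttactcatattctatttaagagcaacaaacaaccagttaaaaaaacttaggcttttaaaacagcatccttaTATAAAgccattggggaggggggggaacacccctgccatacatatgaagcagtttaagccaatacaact
The MEIS letters of Gpr22 lie inside the annotated gene, downstream of the printed 186 bases, because the annotated gene begins further upstream than the RefSeq start.

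The libraries held 13.1 to 21.8 M (mega) reads, and values are given below as normalised CPM, reads scaled to a common effective depth. Meis2 averaged 26.8 ± 4.24 (SD, n = 4) in control ventricles and 8.82 ± 0.848 in idKO ventricles, 33.0% of control (limma, adjusted p = 2.0e-05), and its groups did not overlap. In atria Meis2 averaged 20.0 ± 1.48 and 17.7 ± 1.64 (adjusted p = 0.966). Ventricular Meis1 averaged 27.3 ± 0.767 and 23.1 ± 2.29 and did not pass the test (limma adjusted p = 0.236), though its groups did not overlap. In atria Meis1 averaged 28.3 ± 2.86 in control and 29.7 ± 2.76 in idKO mice (limma adjusted p = 0.986). These gene totals include reads outside the floxed exons, so they do not measure recombination. Esr1, part of whose sequence lies in the MerCreMer transgene, averaged 3099 in idKO ventricles against 0.967 in control ventricles, and 186 in idKO atria against 5.02 in control atria. The labelled genotypes were therefore matched by the transgene reads in 8 of 8 mice, with a lower level in atria than in ventricles. All 8 cardiomyocyte markers were present in every library, with a summed level of 73719 to 79401 in control ventricles and 63535 to 74770 in idKO ventricles.

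In ventricles, transcripts of 2 of the 9 receptors fell in idKO mice, Gpr22 and Adra1b, and 0 rose. Genes tested in ventricles numbered 13144, of which 1.50% were called lower at an adjusted p under 0.05 and 0.533% were called higher. The same 2 receptors had control and idKO libraries that did not overlap, a state found in 8.99% of all genes tested. The median log2 fold change of the 9 receptors was -0.14, beside -0.0076 over all genes tested. Because the members were chosen with earlier results of these data known, the counts and medians set beside all genes are descriptions only. Fold changes here and below are of log2(normalised CPM + 1), which understates the change of low genes.

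**Figure D1:**
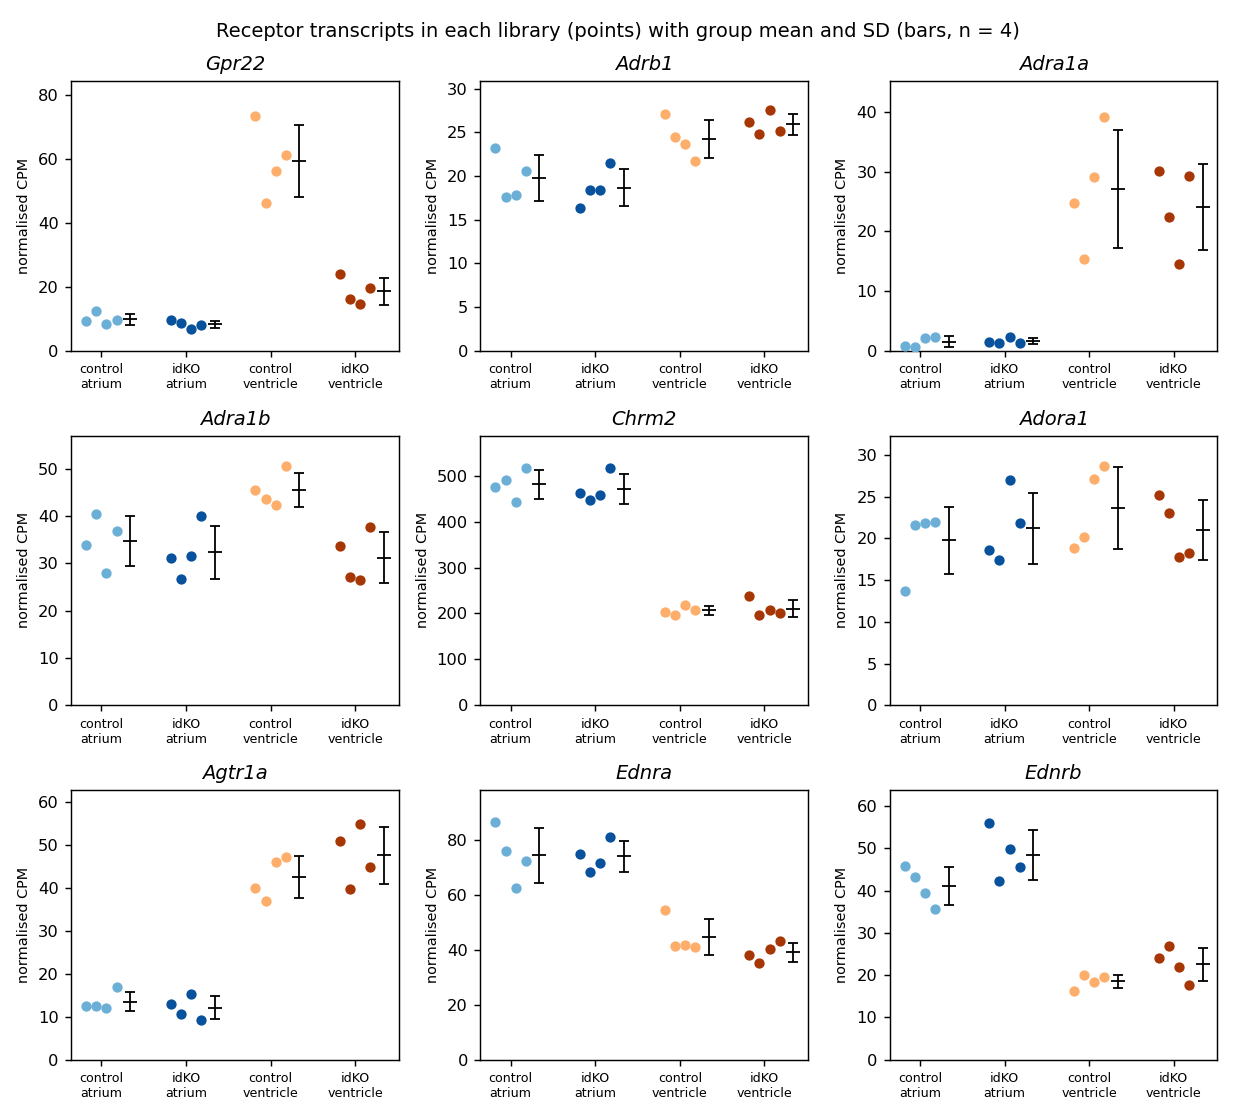
Normalised CPM of each receptor gene on the vertical axis, in control and idKO atria and ventricles on the horizontal axis. Points are libraries and bars give the group mean and SD (n = 4); the idKO ventricles of Gpr22 sit between 14.5 and 23.9, all below the control ventricles at 46.2 to 73.4.

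Gpr22 (ENSMUSG00000044067, chr12:31706867-31713947, minus strand) measured 73.4, 46.2, 56.3 and 61.3 in the 4 control ventricles. The 4 idKO ventricles gave 23.9, 16.1, 14.5 and 19.7. Every idKO ventricle was lower than every control ventricle. The mean fell from 59.3 ± 11.3 to 18.6 ± 4.19 (SD, n = 4), to 31.3% of control, a log2 fold change of -1.63 (SE 0.15, 95% interval -1.96 to -1.29, limma adjusted p = 6.7e-05). These values rest on 559 to 898 reads in control and 190 to 315 reads in idKO ventricles. The call was kept in all 20 alternative analyses of this comparison, with log2 fold changes from -1.75 to -1.52 and adjusted p from 4.9e-22 to 0.0048.

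Atrial Gpr22 was low in both genotypes. Control atria gave 9.39, 12.4, 8.29 and 9.60, and idKO atria 9.64, 8.57, 6.69 and 8.02, with overlapping ranges. The atrial log2 fold change was -0.24 (SE 0.15, 95% interval -0.56 to 0.083, limma adjusted p = 0.966). The genotype effect differed between chambers: the atrial effect minus the ventricular effect was 1.39 (SE 0.23, 95% interval 0.91 to 1.86, limma adjusted p = 0.0063). Gpr22 was the 1 receptor of 9 called for this interaction, in which 0.269% of 14871 genes were called higher. Left without idKO mouse 2, the interaction was 1.31 with an adjusted p of 0.054 and was no longer called. The mean in idKO ventricles, 18.6, remained above that of control atria, 9.92, and all 4 idKO ventricles were above all 4 control atria.

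Gpr22 lies wholly within Cog5, which encodes a subunit of the Golgi tethering complex, on the opposite strand and with 0 shared exon bases in the annotation. Cog5 averaged 78.7 ± 5.46 in control ventricles and 65.2 ± 4.98 in idKO ventricles, 82.9% of control, a log2 fold change of -0.27 that did not pass the test (limma adjusted p = 0.105). Cog5 control and idKO ventricles did not overlap, with 72.7 as the lowest control and 71.5 as the highest idKO value. The sources used here do not say whether the counting used strand, so intronic reads of Cog5 that fall on Gpr22 exons could not be separated from those of Gpr22.

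By closeness of profile over the 16 libraries, measured as the root mean square difference of mean-centred log2 values, the named genes most like Gpr22 among 13261 compared were Fhl2 (0.22), Ttll1 (0.41) and Mov10l1 (0.42). The median over all genes was 1.11, and Gpr22 itself varied by 1.08 on the same scale. Fhl2, a LIM-domain protein of the cardiac sarcomere, gave 2316, 2397, 2064 and 2049 in control ventricles. Its idKO ventricles gave 844, 710, 685 and 932, with no overlap. In atria Fhl2 averaged 384 ± 58.2 in control and 328 ± 54.8 in idKO mice. Likeness was measured on the same libraries as the tests and is a description of them.

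**Figure D2:**
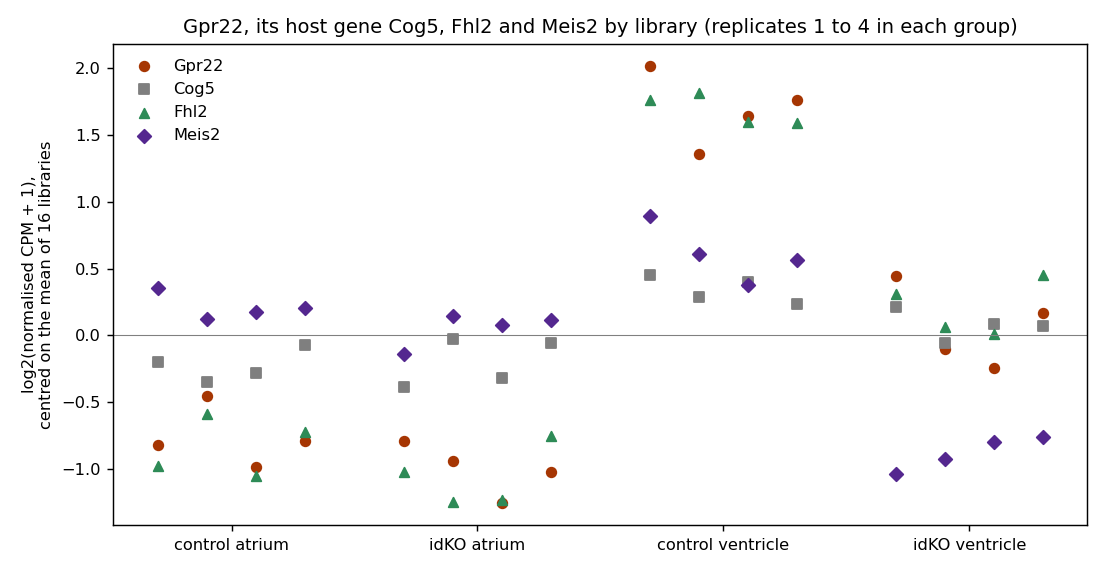
Mean-centred log2(normalised CPM + 1) on the vertical axis for Gpr22, its host gene Cog5, Fhl2 and Meis2 in each of the 16 libraries, grouped by chamber and genotype on the horizontal axis. The group mean of each gene is highest in control ventricles. Gpr22 and Fhl2 differ by a root mean square of 0.22 and are lowest in idKO atria, whereas Meis2 is lowest in idKO ventricles.

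Of the adrenergic receptors, Adra1b fell in ventricles. Adra1b (ENSMUSG00000050541, chr11:43774606-43901210, minus strand), the α1B subtype, measured 45.5, 43.5, 42.3 and 50.6 in control ventricles. Its idKO ventricles gave 33.7, 27.1, 26.4 and 37.6, each lower than the lowest control value. The mean went from 45.5 ± 3.64 to 31.2 ± 5.36 (SD, n = 4), to 68.6% of control, a log2 fold change of -0.54 (SE 0.11, 95% interval -0.78 to -0.30, limma adjusted p = 0.024). This call was lost in 8 of 20 alternatives, among them rescaling to equal sums (-0.44, adjusted p = 0.058), a prior without a trend (adjusted p = 0.100) and leaving out control ventricle 1, 2 or 4 or idKO ventricle 2 or 3 (adjusted p = 0.051 to 0.089). The direction was the same in all 20. In atria Adra1b averaged 34.7 ± 5.29 in control and 32.3 ± 5.57 in idKO mice (adjusted p = 0.984). The interaction for Adra1b was 0.44 (SE 0.18, adjusted p = 0.681), so a difference of the genotype effect between chambers did not pass the test.

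Genes closest in profile to Adra1b were Fam174b (0.11), Slc8a1, the cardiac sodium-calcium exchanger (0.12), and Pigo (0.13). The median over the genes compared was 0.39, and Adra1b varied by 0.28. These small differences are read against a profile that is itself nearly flat.

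Neither of the other adrenergic members passed the genotype test. Adra1a (ENSMUSG00000045875, chr14:66635251-66771168, plus strand), the α1A subtype, gave 24.8, 15.4, 29.0 and 39.1 in control ventricles and 30.0, 22.3, 14.6 and 29.3 in idKO ventricles. The spread among animals was wide and the groups overlapped, with a log2 fold change of -0.14 and a 95% interval of -0.69 to 0.40. Adrb1 (ENSMUSG00000035283, chr19:56722199-56733113, plus strand), the main β-adrenergic receptor of the working heart, gave 27.1, 24.5, 23.7 and 21.7 in control ventricles and 26.2, 24.8, 27.5 and 25.2 in idKO ventricles. Its log2 fold change was 0.096 with a 95% interval of -0.099 to 0.29 (limma adjusted p = 0.671). In atria Adrb1 averaged 19.8 ± 2.64 and 18.7 ± 2.11, and Adra1a 1.47 ± 0.920 and 1.62 ± 0.480, on 9 to 42 reads per library for Adra1a.

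The Gi-coupled receptors overlapped between genotypes in both chambers. Chrm2 (ENSMUSG00000045613, chr6:36388084-36528414, plus strand), the receptor through which the vagus slows the heart, gave 204, 196, 218 and 208 in control ventricles and 238, 196, 207 and 200 in idKO ventricles. Its 95% interval in ventricles, -0.12 to 0.17 around a log2 fold change of 0.024, was the narrowest of the 9. In atria Chrm2 averaged 481 ± 31.5 and 471 ± 32.1, with an interval of -0.18 to 0.11. Adora1 (ENSMUSG00000042429, chr1:134199223-134235431, minus strand), the A1 receptor, gave 18.8, 20.1, 27.1 and 28.7 in control ventricles and 25.2, 23.0, 17.8 and 18.2 in idKO ventricles. The Adora1 log2 fold change was -0.16 with a 95% interval of -0.48 to 0.17. Adora1 shares 1162 annotated exon bases with Mybph on the opposite strand, and Chrm2 shares 142 with the non-coding 9330158H04Rik, so their reads may be in part those of these neighbours; Mybph was not analysed here.

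The angiotensin and endothelin receptors also did not pass the test for genotype. Agtr1a (ENSMUSG00000049115, chr13:30336441-30382867, plus strand), the mouse type 1A angiotensin receptor, gave 40.2, 37.0, 46.0 and 47.4 in control ventricles and 51.1, 39.8, 54.9 and 45.0 in idKO ventricles, a log2 fold change of 0.15 (95% interval -0.081 to 0.39). No values are given here for the near-identical Agtr1b, and a division of reads between the pair by the authors' counting is uncertain. Ednra (ENSMUSG00000031616, chr8:77663031-77724464, minus strand), the endothelin type A receptor of muscle cells, gave 54.4, 41.3, 41.6 and 41.0 in control ventricles and 38.0, 35.0, 40.2 and 43.0 in idKO ventricles. Control ventricle 1 stood above the others, and the log2 fold change was -0.18 (95% interval -0.40 to 0.040). Ednra lies wholly within 4933431K23Rik on the opposite strand and shares 91 exon bases with it. 4933431K23Rik averaged 6.69 ± 0.886 in control ventricles and 3.64 ± 0.964 in idKO ventricles. Its log2 fold change was -0.75 and did not pass the test (limma adjusted p = 0.053). The part of its reads in the Ednra values was not tested.

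Ednrb (ENSMUSG00000022122, chr14:103814625-103844402, minus strand), the type B receptor best known from endothelium, gave 16.4, 20.0, 18.4 and 19.5 in control ventricles. The idKO ventricles gave 24.2, 26.9, 21.8 and 17.6. Of these, 3 were above every control value, and the log2 fold change was 0.26 (95% interval -0.0080 to 0.53, limma adjusted p = 0.350). Atrial Ednrb gave 46.0, 43.2, 39.4 and 35.6 in control and 56.1, 42.2, 49.9 and 45.7 in idKO mice, with a log2 fold change of 0.23 (95% interval 0.012 to 0.46, unadjusted p = 0.040, limma adjusted p = 0.966). The direction was the same in both chambers, and neither difference passed the test.

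In atria 0 of the 9 receptors passed the limma test, 1 (Ednrb) had an unadjusted p under 0.05, and DESeq2 and edgeR each called 0. Over all genes, 0.0207% of 14523 were called, which is 3 genes (Esr1, Prkg1 and Lipo2), and 670 had an unadjusted p under 0.05. The atrial groups overlapped for all 9 receptors, whereas 2.82% of genes did not overlap. The median log2 fold change of the receptors was -0.033, beside -0.00036 over all genes tested.

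**Figure D3:**
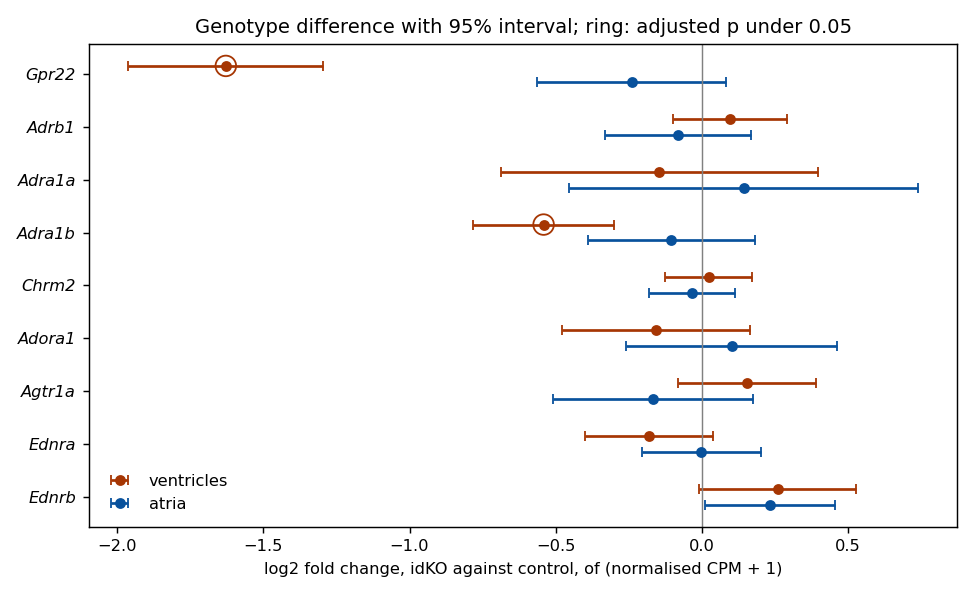
Log2 fold change of each receptor, idKO against control, with its 95% interval on the horizontal axis, in ventricles and atria. The 2 ringed points, Gpr22 at -1.63 and Adra1b at -0.54 in ventricles, have an adjusted p under 0.05; of the other 16 intervals, that of atrial Ednrb does not reach 0.

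Markers of other heart cells were read beside these differences. Over all 13144 genes tested in ventricles, 0.533% were called higher, 1.50% were called lower and 8.99% did not overlap between groups. The last share is of single genes, and none is at hand for sums of markers. In ventricles the summed cardiomyocyte markers averaged 75886 ± 2482 in control and 71389 ± 5298 in idKO mice, with 1 of 8 called lower (Ryr2). Macrophage markers summed to 364 to 380 in control ventricles and 406 to 498 in idKO ventricles, without overlap, and 1 of 8 was called higher (Lyz2). Fibroblast markers summed to 2253 to 2587 and 2354 to 3562, and endothelial markers to 893 to 932 and 888 to 964, with 0 of 8 called in each list. Epicardial and mesothelial markers summed to 27.1 to 35.9 and 9.54 to 27.4, with 1 of 4 tested members called lower (Msln). Endocardial markers summed to 180 to 220 and 203 to 230, with 0 of 6 called. Smooth muscle and pericyte markers summed to 914 to 983 and 859 to 1111, with 0 of 9 called. The part of these shifts in the receptor differences was not tested. In whole tissue, fewer cells of a type and less RNA per cell cannot be told apart.

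The order of levels was compared per kilobase of summed exon length, which allows levels of different genes to be set side by side. In control ventricles Chrm2 led at 34.1 ± 1.54 CPM per kb, without overlap with the next. Agtr1a (15.3 ± 1.76), Adra1b (13.4 ± 1.08) and Gpr22 (12.9 ± 2.45) followed with ranges that overlapped from one to the next. Ednra (8.14 ± 1.20) and Adrb1 (7.17 ± 0.655) overlapped, and so did Ednrb (4.35 ± 0.376), Adora1 (4.09 ± 0.851) and Adra1a (3.10 ± 1.13). In idKO ventricles Gpr22 stood at 4.03 ± 0.909, in place 7 of 9 in place of 4, with a range that overlapped those of Ednrb, Adora1 and Adra1a. With the longest transcript as the length, Adra1a moved from place 9 to 7 in control ventricles and Ednrb from 7 to 9, while the first 6 kept their places. In idKO ventricles the longest transcript put Gpr22 in place 9 and moved Ednra from 5 to 3.

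In control atria the order was Chrm2 (79.5 ± 5.20 CPM per kb), Ednra (13.6 ± 1.81), Adra1b (10.3 ± 1.56), Ednrb (9.62 ± 1.06), Adrb1 (5.86 ± 0.781), Agtr1a (4.87 ± 0.792), Adora1 (3.42 ± 0.697), Gpr22 (2.15 ± 0.379) and Adra1a (0.169 ± 0.105). Neighbouring ranges overlapped for Ednra with Adra1b, Adra1b with Ednrb, Adrb1 with Agtr1a, and Adora1 with Gpr22. The order in idKO atria was the same except that Ednrb (11.4 ± 1.40) stood above Adra1b (9.55 ± 1.65), and these 2 overlapped.

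**Figure D4:**
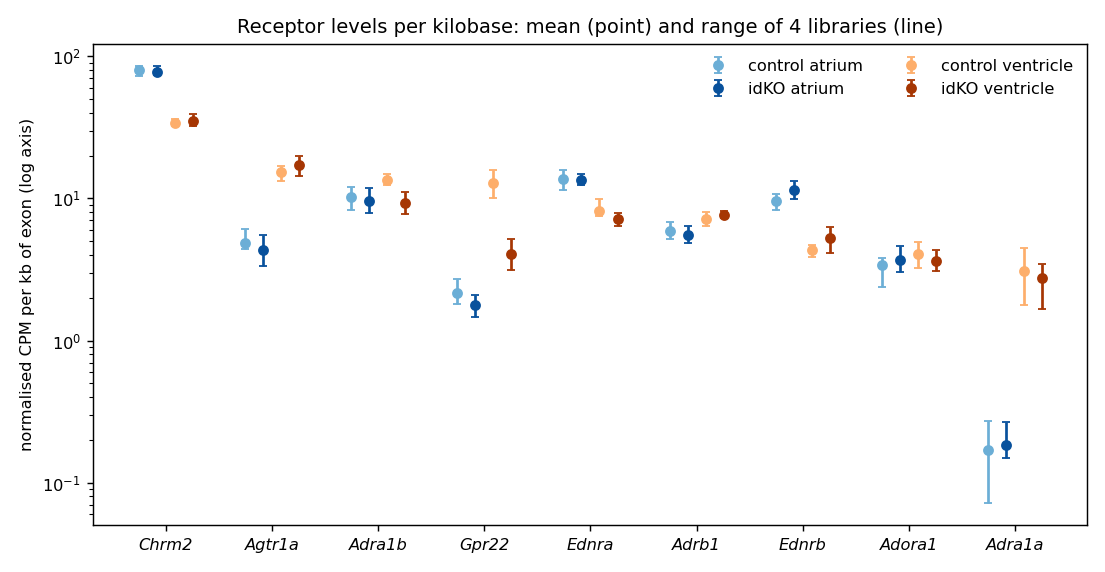
Normalised CPM per kb of exon on a log axis for the 9 receptors, ordered by their level in control ventricles. Points are group means and lines the range of 4 libraries; Chrm2 is highest in all 4 groups, and Gpr22 goes from 12.9 in control to 4.03 in idKO ventricles.

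Control atria and control ventricles differed for 8 of the 9 receptors. Higher in atria were 3 (Chrm2, Ednra and Ednrb), where 28.2% of the 14871 genes tested were called higher, and lower in atria were 5 (Gpr22, Adrb1, Adra1a, Adra1b and Agtr1a), where 28.7% were called lower. The groups did not overlap for 7 of 9 receptors and for 50.7% of all genes, so the count is read against a background in which most genes differ between chambers. The median log2 fold change, atria against ventricles, was -0.28 over the receptors and 0.017 over all genes tested. When every library was rescaled to the same sum, the median over all genes moved to 0.52 and the split of calls from 4201 higher and 4267 lower to 9883 higher and 1386 lower. Under that scaling the receptors were called higher in atria for 4 and lower for 3, with a median of 0.26, where 66.5% of all genes were called higher and 9.32% lower. Adrb1 turned to 0.26 and was called higher in atria (adjusted p = 0.031), Adra1b turned to 0.16 (adjusted p = 0.231) and Adora1 to 0.29 (adjusted p = 0.141), and the direction of the other 6 did not change.

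The largest chamber difference was that of Adra1a, which gave 0.734, 0.627, 2.15 and 2.38 in control atria against 15.4 to 39.1 in control ventricles, an 18.4-fold ratio of means and a log2 fold change of -3.51 (SE 0.28, limma adjusted p = 4.3e-09). Gpr22 was 5.98-fold higher in control ventricles (log2 fold change -2.46, SE 0.16, adjusted p = 2.0e-10). Agtr1a was 3.14-fold higher there (42.6 ± 4.91 against 13.6 ± 2.21, log2 fold change -1.59, adjusted p = 1.5e-08). Chrm2 was 2.33-fold higher in control atria (481 against 206 ± 9.35, log2 fold change 1.22, adjusted p = 2.3e-11). Ednrb was 2.21-fold higher in atria (41.0 ± 4.51 against 18.6 ± 1.61, log2 fold change 1.10, adjusted p = 2.0e-07) and Ednra 1.67-fold (74.4 ± 9.90 against 44.6 ± 6.57, log2 fold change 0.73, adjusted p = 6.6e-06). Adrb1 (-0.28, adjusted p = 0.024) and Adra1b (-0.39, adjusted p = 0.016) were lower in atria by smaller amounts. The call of Adrb1 was lost with TMM factors, with edgeR and without control mouse 2 or 3 (adjusted p = 0.051 to 0.124), and that of Adra1b without control mouse 1, 3 or 4 (adjusted p = 0.056 to 0.070), beside the change of sign of both with equal sums. Adora1 differed by -0.25 (95% interval -0.61 to 0.11, adjusted p = 0.227).

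Cell type markers were read beside the chamber differences, against the 28.2% of genes called higher and 28.7% called lower in control atria (66.5% and 9.32% with equal sums). Fibroblast (8 of 8) and endocardial markers (6 of 6) were called higher in control atria, also with equal sums. Cardiomyocyte markers were called lower for 6 of 8 (5 of 8 with equal sums, which called 2 higher), and their summed level was 47168 to 55525 in control atria against 73719 to 79401 in control ventricles. Macrophage markers were called higher for 4 of 8 (8 with equal sums). Endothelial markers were called higher for 3 and lower for 4 of 8 (5 and 0 with equal sums), and smooth muscle and pericyte markers higher for 3 and lower for 3 of 9 (6 and 2), near the shares over all genes. For lists with members that entered the test through atrial libraries alone, summed levels are given in place of counts. Schwann cell and neuron markers summed to 47.9 to 66.1 in control atria and 10.2 to 15.9 in control ventricles, where Th, Prph and Chrna3 stayed under 1 CPM. Lymphocyte markers summed to 150 to 681 and 9.07 to 16.3, and epicardial and mesothelial markers to 299 to 398 and 27.1 to 35.9. Adipocyte markers summed to 346 to 887 in control atria and 775 to 841 in control ventricles, and in control ventricles 4 of the 6 (Adipoq, Plin1, Lep and Ucp1) were under 1 CPM. The ventricular sum therefore came almost wholly from Cfd and Fabp4 and does not speak for the list. The part of cell composition in the receptors' chamber differences was not tested.

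Around the receptors, 9 lists of signalling partners gave 4 genotype calls among 134 genes tested in ventricles, 1 higher and 3 lower, with 30 at an unadjusted p under 0.05; DESeq2 called 8 and edgeR 5. Over all 13144 genes tested, limma called 267 (2.03%), DESeq2 537 (4.09%) and edgeR 260 (1.98%), and 1967 had an unadjusted p under 0.05. Each of these shares was higher in the lists than over all genes, and the difference was not tested. The median log2 fold change of the listed genes was 0.0085, beside -0.0076 over all genes. In atria limma called 0 of 151, with 7 at an unadjusted p under 0.05 (4.61% over all genes tested) and 0 by DESeq2 and edgeR. For the interaction limma and edgeR called 0 of 155, where they called 0.296% and 0.208% of 14871 genes. DESeq2 called 2 (Gnao1 and Ryr2), beside 0.578% over all genes. An unadjusted p under 0.05 was found for 12, beside 6.54% over all genes.

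Among the G protein subunits 1 of 21 rose in ventricles, Gnao1, and 0 fell. Gnao1, the α subunit of Go, gave 30.1, 24.0, 28.3 and 25.0 in control and 32.1, 44.9, 44.4 and 35.6 in idKO ventricles, with no overlap (log2 fold change 0.52, SE 0.12, limma adjusted p = 0.036). The call was lost in 7 of 20 alternatives, with adjusted p up to 0.129. In atria Gnao1 averaged 229 ± 13.2 in control and 214 ± 14.3 in idKO mice, a level above all ventricles. The interaction for Gnao1 was -0.62 (adjusted p = 0.079).

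Of 24 Gq effectors tested 1 fell in ventricles, Prkca, which encodes protein kinase Cα. Prkca gave 27.0, 21.9, 24.0 and 24.9 in control and 17.6, 15.5, 18.4 and 16.6 in idKO ventricles, with no overlap (log2 fold change -0.50, SE 0.097, limma adjusted p = 0.019). Its call was lost in 5 of 20 alternatives, with adjusted p up to 0.067. The other 23 did not pass the test, and the list's median was 0.045.

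In the protein kinase A arm and its targets 2 of 28 fell in ventricles and 0 rose. Ryr2, through which stored calcium leaves the sarcoplasmic reticulum, gave 2379, 2090, 2395 and 2505 in control and 1542, 1253, 1464 and 1680 in idKO ventricles, without overlap; the log2 fold change was -0.66 (SE 0.087, limma adjusted p = 0.0011). Cacna1c, the pore of the L-type calcium channel, averaged 366 ± 43.4 and 276 ± 22.7 (log2 fold change -0.41, limma adjusted p = 0.027), and its call was lost in 8 of 20 alternatives. Both are calcium channels listed as targets, neither is part of the kinase, and Ryr2 is also on the cardiomyocyte marker list. The list's median was -0.092, beside -0.0076 over all genes tested, with 21 members below 0 and 7 above. In atria 21 members were below 0 and 6 above, with 0 called. Pln, Tnni3 and Mybpc3 of this list are also on the cardiomyocyte marker list, of which 7 of 8 were below 0 in ventricles.

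The other subtypes of these receptor families, further cardiac receptors, ligands and their makers, receptor kinases and arrestins, RGS proteins and the Gi-gated potassium channel had 0 of 61 genes called in ventricles by limma, with 17 at an unadjusted p under 0.05 (beside 1967 of 13144 over all genes tested), 1 called by DESeq2 (Maob, lower) and 0 by edgeR. Between control chambers, both subunits of the potassium channel opened by Chrm2 and Adora1 were higher in atria. Kcnj3 averaged 717 ± 65.1 in control atria and 110 ± 1.98 in control ventricles, a log2 fold change of 2.68 (limma adjusted p = 7.6e-13). Kcnj5 averaged 374 ± 42.5 and 115 ± 7.43 (log2 fold change 1.68, limma adjusted p = 9.0e-11). Of the other subtypes, Adora2a was lower in control atria (3.50 ± 0.530 against 8.29 ± 1.54, limma adjusted p = 3.6e-05). The calls of Kcnj3, Kcnj5 and Adora2a were kept in all 20 alternatives. Adrb3 gave 1.64 to 4.48 in control atria and 0 to 2 reads per library in control ventricles, and Chrm3 2.95 to 5.99 and 0.936 to 1.43; both were too low for the test within ventricles, so no test between chambers is given for them. These 5 genes were named after their values were seen.

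Counts for the longer lists between control chambers moved with the scaling. They are read against 28.2% higher and 28.7% lower over all genes, or 66.5% and 9.32% with equal sums. No counts are given for protein kinase A arm genes, of which 28 were tested here and 27 within atria. A member of that list reached the filter only with ventricular libraries counted. Among the G protein subunits, Gnao1 was higher in control atria. Gnao1 averaged 229 in control atria and 26.9 in control ventricles (log2 fold change 3.05, limma adjusted p = 1.0e-14). Gq effectors were higher for 12 and lower for 5 of 24 (19 and 1 with equal sums). Receptor kinases and arrestins, which silence active receptors, were higher for 4 and lower for 1 of 8 (8 and 0). No counts are given for G protein subunits, of which 25 were tested here and 21 within ventricles, or for RGS proteins (13 and 10), which end G protein signals. The same holds for ligands and their makers (26 and 19) and further cardiac receptors (24 and 19). Some members of the G protein subunit, RGS, ligand and further receptor lists reached the filter only with atrial libraries counted.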

How the data were processed

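The authors deposited a table of a normalised signal. The submitters' processing notes name cutadapt, RSEM 1.3.1 and the build GRCm38; the scaling tool, with any filter, is not given in the sources used here. Each value proved to be a whole number of reads plus 0.5 over an effective library size, scaled to CPM, and 100% came out whole within 0.01. Effective size per recovered read averaged 0.947 and 0.958 in control and idKO atria and 0.639 and 0.687 in control and idKO ventricles. Recovered reads are rounded RSEM estimates. Per the labels' protocols, 20 ng of RNA gave single reads of 60 bases.

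Genes with at least 4 libraries at 1 CPM were tested with limma 3.58.1 (R 4.3.3) on log2(value + 1), trended prior, two-sided, Benjamini-Hochberg over all genes tested, threshold 0.05. The planned form for scaled values was used. Each chamber was fitted alone; the interaction and the control chambers used all 16 libraries. Every receptor was named; from the partner lists, up to 4 called in ventricles and any called otherwise, and the 3 genes closest in profile; called genes given in brackets after a count were named after their values were seen. Members and lists were chosen with earlier results of these data known. The mouse number in the labels pairs atrium and ventricle: their deviations correlated at 0.188 to 0.325 over 14871 genes, and 8 of 8 mice correlated best with themselves. Alternatives covered pseudocount, filter, scaling, prior, weights, joint and blocked fits, DESeq2 1.42.0, edgeR 4.0.16 and leaving out each library or mouse. The fit was tested on simulated data. Gene positions are from GENCODE on GRCm38, and promoters from RefSeq.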

Additional observations from a re-analysis of the deposited data

Results flagged for a closer look

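The genotype effect on Gpr22 differed between chambers by 1.39 on the log2 scale (atrial minus ventricular effect, limma adjusted p = 0.0063). In 3 of 36 groups of 4 libraries for the receptors, 1 library stood apart from the other three by Dixon's criterion, which chance gives in about 1 of 20 groups. Adora1 was low in control atrium 1, at 13.7 normalised CPM where the others gave 21.6 to 21.9. Agtr1a was high in control atrium 4, at 16.9 where the others gave 12.2 to 12.6. Ednra was high in control ventricle 1, at 54.4 where the others gave 41.0 to 41.6.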

How the results depend on the processing

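Of 719 alternative values for the receptors, 680 kept direction and side of the threshold, 16 kept direction and lost the call, 23 changed sign and 0 gained a call. The 2 receptors called in ventricles became 1 without a filter, with a prior without a trend and with equal sums, and 1 to 2 when 1 library was left out; Gpr22 was called in each. Called genes in ventricles went from 70 higher and 197 lower to 30 and 118 without a filter, 19 and 70 without a trend, 149 and 108 with equal sums, and 195 and 342 with DESeq2; leaving out 1 library gave 132 (without control ventricle 4) to 359 genes called (without idKO ventricle 4), beside 267. Receptors called for the interaction were 0 to 1 when 1 mouse was left out, and 0 came from leaving out idKO mouse 2; genes called over all went from 44 to a split of 17 and 5 with equal sums and 64 and 22 with DESeq2, 24 genes without a trend, and 19 (without idKO mouse 2) to 39 when 1 mouse was left out. In atria the receptor count was 0 in all 20 alternatives.

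With the mouse as a fixed or random replicate block, the interaction count stayed at 1 (102 and 71 genes over all) and the control chamber count at 8; with a random block in a joint fit, ventricles stayed at 2 and atria at 0. The block changed no receptor call.

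With equal sums, the chamber differences of Adrb1 (0.26, adjusted p = 0.031), Adra1b (0.16) and Adora1 (0.29) and the atrial genotype difference of Ednra (0.016) changed sign; the cause was not tested. With array weights, Ednra in atria (0.013) and the Ednrb interaction (0.0027) changed sign. Leaving out 1 library or mouse changed the sign of small uncalled values, with these ranges over all such fits. In ventricles Adra1a ran from -0.38 to 0.067 and Chrm2 from -0.037 to 0.056. In atria Adra1a ran from -0.031 to 0.32, Chrm2 from -0.079 to 0.0028, Adora1 from -0.055 to 0.19 and Ednra from -0.080 to 0.074. For the interaction Adra1a ran from -0.043 to 0.45, Chrm2 from -0.12 to 0.013 and Ednrb from -0.12 to 0.12. Adra1a in atria was not tested at a filter of 5 CPM. Depth limits Adra1a in atria, with 9 to 42 reads per library.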
